A study of Mus musculus with 38 samples.

Results

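The lung and the forestomach of the untreated group, D0, were compared to describe how far the tissues differed before any polycyclic aromatic hydrocarbon was given. The members are the 10 D0 arrays of a series of 38, namely the lung arrays of 5 mice and the forestomach arrays of the same 5 numbered mice, chosen by title and paired by mouse number. The animals were adult male MutaMouse, a transgenic mouse that carries a bacterial lacZ reporter for mutation assays in all cells, aged about 10 weeks. D0 mice were gavaged daily with the olive oil vehicle for 28 days, and both tissues were snap frozen 72 hours after the final gavage. The other 28 arrays of the series are of mice given dibenz(a,h)anthracene. They entered here only to see whether the tissue difference was present in other animals and whether it differed from that at D0. RNA came from random sections of each organ, so every value is a mixture of the cell types in the section. Fewer cells of a type and less RNA per cell cannot be told apart in such bulk samples.

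Polycyclic aromatic hydrocarbons are not reactive when swallowed. They bind the aryl hydrocarbon receptor (AhR), which with its partner Arnt induces cytochrome P450 enzymes of the Cyp1 family. These enzymes, with microsomal epoxide hydrolase, turn them into diol epoxides that form bulky DNA adducts. Glutathione transferases, sulfotransferases, glucuronosyltransferases and quinone reductase can divert the intermediates, nucleotide excision repair removes the adducts, and p53 responds to the damage that remains. The forestomach, lined by a keratinised squamous epithelium, is where a gavaged compound is first held. The lung, a thin gas exchange surface with conducting airways, is reached through the blood.

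For each of 55681 probes an array gave the log2 ratio of the tissue RNA, in the Cy5 channel, to a universal mouse reference RNA from 11 cell lines, in the Cy3 channel. A probe was called when its adjusted p in a fit paired by mouse was at most 0.05 and the tissues differed by at least 1.5-fold. For lists of genes, the brightest probe of each of 20018 genes was used. All differences below are lung minus forestomach on the log2 scale, so that a negative value means higher in forestomach. Unless SD is named, the error after ± is the SE from the fit paired by mouse. This SE is moderated, as its variance draws on all probes, and can differ from that of the 5 pair differences of 1 probe. For changes against D0 it comes from the fit of all dose groups. A value on this scale is relative to the reference RNA, so it can be compared between tissues for 1 gene but not between genes.

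The share of probes with a Cy5 signal well above background ran from 41.5% to 61.2% on the lung arrays and from 30.1% to 53.9% on the forestomach arrays. Lung arrays correlated with each other between 0.927 and 0.957 across probes. Forestomach arrays correlated between 0.659 and 0.934, and a lung with a forestomach array between 0.458 and 0.531. Over probes above background on all 10 arrays, the median SD between mice was 0.163 in lung and 0.278 in forestomach. Both arrays of a mouse lay on 1 slide, but lung was always in the first row of the slide and forestomach in the second, so that tissue and row cannot be told apart.

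Markers of each tissue's own cells separated the 2 groups, as the plot of marker lists shows. All 11 measured markers of alveolar type 2 cells, the surfactant-producing cells of the lung, were higher in lung, with a median difference of 4.36. So were 6 of 7 markers of alveolar type 1 cells, 6 of 7 of club cells, 10 of 11 of ciliated cells and 14 of 15 of endothelium. Nkx2-1, the transcription factor that specifies lung epithelium, had log2 ratios of 4.28, 4.27, 3.69, 3.92 and 4.50 in the lungs of mice 1 to 5 and was not well above background on any forestomach array. In forestomach, 22 of 24 markers of squamous epithelium (median -3.50), 21 of 26 of the cornified envelope (median -3.64) and all 14 of smooth muscle (median -2.59) were higher. Pitx1, a transcription factor of foregut and hindlimb, was at 5.15, 5.25, 5.54, 5.61 and 5.51 in the 5 forestomachs and not well above background in any lung.

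**Figure D1:**
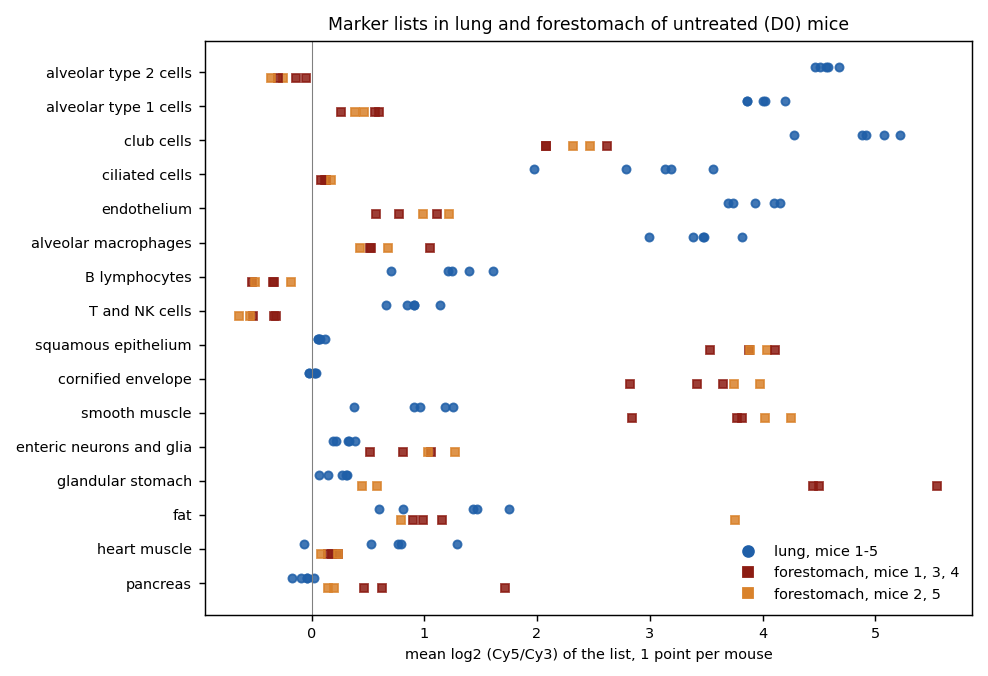
Mean log2 (Cy5/Cy3) of 16 marker lists, 1 point per mouse, in lung (circles) and forestomach (squares) of the 5 D0 mice. Lung and squamous lists separate the tissues in all 5 mice, whereas the glandular stomach list is high only in the forestomachs of mice 1, 3 and 4, and fat only in that of mouse 2.

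The forestomach arrays were not alike in glandular stomach, the acid-secreting part that adjoins the forestomach. The mean log2 ratio of 14 glandular markers was 5.55, 0.44, 4.50, 4.45 and 0.58 in the forestomachs of mice 1 to 5, and ran from 0.062 to 0.31 in the lungs. By these means mice 1, 3 and 4 stood apart from mice 2 and 5. By detection the forestomach of mouse 2 had 9 of the 14 markers well above background, against 13, 12 and 12 in mice 1, 3 and 4 and 3 in mouse 5. The lung of mouse 2 also had 9, and the other lungs had 2 to 4. Both arrays of mouse 2 had the highest share of probes above background in their tissue (61.2% and 53.9%). Detection therefore does not place its forestomach between the others. The glandular signal of mice 2 and 5 was lower but not absent, and Tff1, a trefoil peptide of the stomach, averaged 3.04 in them. Gkn2, a gastrokine of the stomach's surface mucous cells, ran from 7.97 to 8.48 in the 3 and was 0.63 and 1.75 in the other 2. Without mouse 3 or mouse 4 the call of Gkn2 was lost (adjusted p = 0.0735 and 0.072). The forestomach of mouse 2 also had a mean of 3.75 over 8 fat markers, while the other forestomachs lay between 0.79 and 1.15 and the lungs between 0.60 and 1.75. Forestomach of mouse 1 had the highest pancreas score, 1.71, and heart muscle markers ran from -0.064 to 1.29 in lung. Results that rest on the 3 forestomachs with high glandular signal are given below with and without them. Fits against mice 2 and 5, or against mice 1, 3 and 4, set all lungs against the forestomachs kept and were not paired by mouse. Their adjusted p is therefore not to be set beside that of the paired fit.

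Across all probes, 8933 of 55681 (16%) were called, 4787 (8.6%) higher in lung and 4146 (7.45%) higher in forestomach. By gene, 5456 of 20018 (27.3%) were called, 14.8% higher in lung and 12.5% higher in forestomach, and these shares are the background for each list. The 5 lung values did not overlap the 5 forestomach values for 29.3% of genes. Of the 9252 genes well above background on all 10 arrays, 19.3% were higher in lung and 17.8% in forestomach. Among the largest differences toward lung were those of Inmt, a methyltransferase of small amines (7.04), Hc, which encodes complement C5 (6.85), and the surfactant genes Sftpc (6.76), Sftpd (6.51), Sftpb (6.16) and Sftpa1 (6.13). Toward forestomach the largest were those of Ada, adenosine deaminase (-8.43), Elovl4, which makes very long chain fatty acids (-7.79), Lce3a and Kprp of the cornified layer (-7.51 and -7.25), and the keratin Krt1 (-7.19). Ada was at -1.82, -2.11, -1.18, -1.74 and -1.76 in lung and at 5.11, 6.97, 7.00, 7.10 and 7.33 in forestomach, and no lung value came near a forestomach value.

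How the arrays were scaled moved the balance between the tissues. With loess 53.6% of the called probes were higher in lung, and with median centring of each array 85%. Median centring raised the median difference of the 9252 genes above background on all arrays from 0.016 to 0.54. By gene it called 27.3% higher in lung and 4.9% higher in forestomach, and these shares are the background for counts made with it. Differences of the large size just given kept their direction, but a small difference shared by many genes does not. Counts at D0 of the metabolism, p53, repair and proliferation lists are therefore given under both scalings.

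The AhR pathway differed between the tissues member by member rather than as a block. Of 11 measured genes 4 were called higher in lung (36.4%, against 14.8% of all genes) and 2 higher in forestomach (18.2%, against 12.5%), with a median difference of 0.39. With median centring 6 and 1 were called, and against the forestomachs of mice 2 and 5 alone 2 and 3. Ahr itself, the receptor, was at 1.92, 1.36, 1.60, 1.68 and 1.67 in the lungs of mice 1 to 5 and at -0.23, -0.54, -0.40, -0.25 and -0.70 in their forestomachs. Every lung was above every forestomach, with a difference of 2.07 ± 0.093, or 4.2-fold (adjusted p = 7.9e-06). A second, dimmer Ahr probe, well above background on 1 of the 10 arrays, differed by 0.039. Arnt, the dimerisation partner, differed by 0.49 (adjusted p = 0.00249), which is under the fold required, and its values overlapped. A second Arnt probe differed by -0.28 without a call. Tiparp, an AhR-induced enzyme that dampens the receptor, was higher in lung by 0.85, and its second probe by 0.61.

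Of the enzymes AhR induces, Cyp1a1 and Cyp1b1 leaned opposite ways. Cyp1a1, the main hydrocarbon-oxidising P450 outside the liver, was at 1.93, 3.77, 3.29, 2.86 and 2.45 in lung and -0.23, 0.74, -0.029, 0.08 and 3.61 in forestomach. The forestomach of mouse 5 was as high as the upper lungs, that of mouse 2 was intermediate, and the 3 with high glandular signal were near 0. Cyp1a1 was well above background on only 2 of the 5 forestomach arrays, so the differences below are not exact sizes. The paired difference was 2.03 ± 0.60 with an adjusted p of 0.0443. It was not called against the forestomachs of mice 2 and 5 alone (0.69, adjusted p = 0.57) and was 2.92 against those of mice 1, 3 and 4 (adjusted p = 1.5e-04). Leaving out mouse 1, 2, 3 or 4 also ended the call, with adjusted p of 0.0666, 0.131, 0.15 and 0.139. Cyp1b1, a second enzyme that oxidises polycyclic hydrocarbons, was lower in lung, at -2.12, -1.72, -1.96, -1.26 and -1.45 against -1.13, -0.44, -0.69, -0.54 and 0.60. The groups did not overlap, and the difference was -1.26 ± 0.18 (adjusted p = 0.00167), or -1.78 against mice 2 and 5 and -0.92 against mice 1, 3 and 4. With median centring it was -0.58 and not called (adjusted p = 0.0682). Cyp1a2 was not well above background on any array, so no fold is given. Ahrr, the AhR repressor, was above background on 2 forestomach arrays and on no lung array, and was not called.

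Nqo1, the quinone reductase that both AhR and Nrf2 induce, showed the largest difference of the list. It was at -1.78, -1.57, -1.44, -1.18 and -1.34 in lung and at 3.57, 2.04, 2.79, 2.46 and 1.82 in forestomach, 16-fold lower in lung (difference -4.00 ± 0.29, adjusted p = 6.9e-05). All 5 pairs ran the same way, and the forestomachs with high glandular signal were the higher ones. Without those 3 the difference was -3.39 in the unpaired fit (adjusted p = 1.4e-07).

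The promoters of these genes are shown because the members differ in opposite directions although all are known AhR targets. They are RefSeq sequences of build GRCm38.p6, from 250 bases before to 50 bases after a transcription start, and capitals mark each copy of GCGTG, the core of the AhR binding element, read on either strand (CACGC on the other). The core stands in 32.4% of the 32851 promoters of the same length in the table, counted per promoter. Counted per gene with any such promoter, it stands in 6 of the 8 AhR pathway genes found there and in 6 of 21 glutathione transferase genes, and the per promoter and per gene shares are not to be compared. For Cyp1a1 this start lies inside the gene, downstream of its outermost RefSeq start. Cyp1a1 (chr9:57697363-57697662, plus strand) holds 1 core at position 197 of the window and Cyp1b1 (chr17:79715012-79715311, minus strand) 1 on the other strand at position 175. Nqo1 (chr8:107403156-107403455, minus strand) holds none in this window, and Gsta1 (chr9:78230419-78230718, plus strand) holds 1 at position 249.
Cyp1a1: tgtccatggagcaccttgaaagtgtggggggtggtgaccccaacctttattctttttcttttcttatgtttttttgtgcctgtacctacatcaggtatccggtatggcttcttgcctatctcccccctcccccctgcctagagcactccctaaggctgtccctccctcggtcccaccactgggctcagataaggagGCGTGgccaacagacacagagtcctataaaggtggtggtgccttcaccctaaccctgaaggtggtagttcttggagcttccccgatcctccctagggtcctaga
Cyp1b1: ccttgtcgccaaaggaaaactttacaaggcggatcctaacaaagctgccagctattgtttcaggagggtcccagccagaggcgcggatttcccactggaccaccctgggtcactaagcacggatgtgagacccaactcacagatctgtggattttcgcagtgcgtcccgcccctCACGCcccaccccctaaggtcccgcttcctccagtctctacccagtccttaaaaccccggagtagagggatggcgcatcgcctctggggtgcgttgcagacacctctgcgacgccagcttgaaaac
Nqo1: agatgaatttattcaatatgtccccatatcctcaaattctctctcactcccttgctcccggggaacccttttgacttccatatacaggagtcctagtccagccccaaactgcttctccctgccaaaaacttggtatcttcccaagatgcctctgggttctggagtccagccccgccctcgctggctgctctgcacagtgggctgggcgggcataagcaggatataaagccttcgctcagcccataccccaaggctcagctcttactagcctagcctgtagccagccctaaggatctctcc
Gsta1: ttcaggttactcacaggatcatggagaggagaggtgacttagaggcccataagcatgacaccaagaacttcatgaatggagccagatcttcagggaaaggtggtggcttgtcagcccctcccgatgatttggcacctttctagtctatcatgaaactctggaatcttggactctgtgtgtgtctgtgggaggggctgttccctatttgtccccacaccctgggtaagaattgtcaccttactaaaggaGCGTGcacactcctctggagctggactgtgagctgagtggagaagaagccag

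Oxidising enzymes stood on both sides. Of 26 measured P450 enzymes and partners, 9 were higher in lung (34.6%) and 6 in forestomach (23.1%), with a median difference of -0.0013. With median centring 10 and 5 were called, with a median of 0.14. The lung had far more Cyp4b1, a P450 known for bioactivating small xenobiotics in the airways, at 8.04, 7.22, 7.02, 7.94 and 8.10 against 0.65, 3.09, 1.47, 0.90 and 2.84. This is a 58.7-fold difference (adjusted p = 8.9e-05), and the log2 difference was 4.70 against the forestomachs of mice 2 and 5 and 6.66 against the others. Fmo1, a flavin monooxygenase, was higher in lung by 4.40, and its probe was well above background in all 5 lungs and in 1 forestomach. Cyp2b10, a P450 induced through the receptor CAR, was higher in lung by 2.91 ± 0.24. Por, which passes electrons to every microsomal P450, differed by 0.48 (adjusted p = 0.0091), under the fold required.

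Forestomach carried other P450s. Cyp3a13, a member of the drug-metabolising 3A family, was at 2.23, 4.11, 2.01, 2.01 and 3.26 in forestomach and from -0.33 to 0.12 in lung, with a difference of -2.80 ± 0.28. It was highest in mice 2 and 5, the forestomachs with lower glandular signal. A second Cyp3a13 probe, above background on 5 lung and 3 forestomach arrays, differed by -0.25 without a call. Cyp2j6 and Cyp2s1, epithelial P450s, were higher in forestomach, with differences of -1.89 and -1.72, but a second Cyp2j6 probe, above background on 3 of 10 arrays, differed by -0.26 without a call. Cyp2c65, known as a P450 of the digestive tract, was at 5.73, 0.54, 4.12, 3.92 and 0.32 in forestomach, high only where the glandular markers were high. Its paired difference of -3.06 was not called against mice 2 and 5 (-0.56, under the fold, adjusted p = 0.00596), nor without mouse 3 or 4 (adjusted p = 0.0852 and 0.0831).

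**Figure D2:**
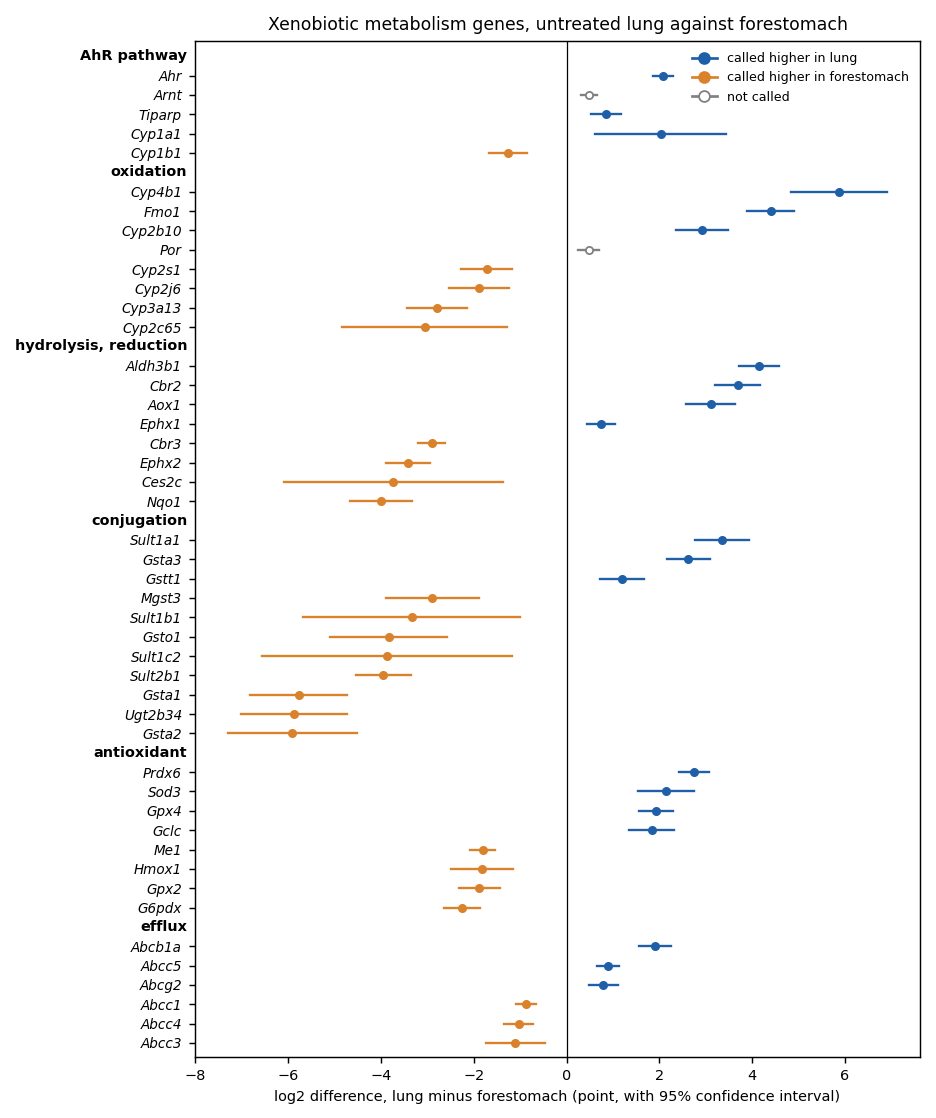
Log2 difference, lung minus forestomach, of 46 genes of xenobiotic metabolism with 95% confidence intervals from the paired fit of 5 mice, coloured by call. Oxidising and reducing enzymes stand on both sides of 0, the largest conjugation differences are on the forestomach side, and the widest intervals are those of Ces2c, Sult1b1, Sult1c2 and Cyp2c65.

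Among 32 hydrolases, dehydrogenases and reductases, 11 were higher in lung (34.4%) and 10 in forestomach (31.2%), both above the background, with a median of 0.048. With median centring 14 and 9 were called, with a median of 0.41. Aldh3b1, an aldehyde dehydrogenase, was at 1.80, 1.78, 1.43, 2.38 and 2.35 in lung and -2.41, -2.49, -1.90, -1.75 and -2.45 in forestomach, a 17.7-fold difference (adjusted p = 7.7e-06). Cbr2, the carbonyl reductase of club cells, and Aox1 and Aox3, aldehyde oxidases, were higher in lung by 3.69, 3.11 and 2.95. Ephx1, the microsomal epoxide hydrolase that makes hydrocarbon diols, was from 0.99 to 1.40 in lung and from 0.016 to 0.82 in forestomach. It was higher in lung in all 5 pairs, by 0.74 ± 0.13 (adjusted p = 0.00478), but not called against mice 2 and 5 (0.39), and its second probe differed by 0.30 without a call. In forestomach, Ephx2, the soluble epoxide hydrolase, Adh7, the alcohol dehydrogenase of the upper digestive tract, and Cbr3, a carbonyl reductase, were higher. Their differences were -3.43 ± 0.20, -3.09 ± 0.37 and -2.91 ± 0.12, and each was called with either set of forestomachs. Ces2c, an intestinal type carboxylesterase, was at 7.94, 1.22, 5.65, 5.37 and 0.78 in forestomach and ran from -0.026 to 0.97 in lung. Its difference of -3.73 (adjusted p = 0.0307) fell to -0.54 without the forestomachs that had high glandular signal (adjusted p = 0.144), and the call was also lost without mouse 3 (0.11) or mouse 4 (0.108).

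Conjugating enzymes were more often higher in forestomach. This held for 11 of 23 glutathione transferases (47.8%, against 12.5% of all genes) and 7 of 18 other conjugation enzymes (38.9%), while 4 and 1 were higher in lung. The medians were -0.53 and -0.68 with loess, and -0.14 and -0.39 with median centring, which called 10 and 4 higher in forestomach and 5 and 2 in lung. Against the forestomachs of mice 2 and 5 alone they were -1.03 and -0.15, with 13 and 5 called higher in forestomach and 6 and 1 in lung. Gsta2, an alpha class transferase known to act on hydrocarbon diol epoxides, was at -0.17, 0.48, -0.27, 0.44 and 0.79 in lung and 7.70, 5.07, 6.93, 6.81 and 4.31 in forestomach, 60.1-fold apart (adjusted p = 3.5e-04). Gsta1, a near copy of Gsta2 that may share its signal on the array, was lower in lung by 54.8-fold. Both were highest in the forestomachs with high glandular signal. Against the other 2 the differences were -4.43 and -4.65 and still called (adjusted p = 1.7e-06 and 2.4e-07). Gsto1, of the omega class, and Mgst3, a microsomal transferase, followed the same order, with differences of -3.84 ± 0.54 and -2.89 ± 0.43. Gsta3, another alpha class member, ran the other way. It was at 4.90, 4.94, 4.56, 5.18 and 5.07 in lung and 2.88, 2.31, 2.47, 2.11 and 1.76 in forestomach (difference 2.62 ± 0.20, adjusted p = 9.1e-05), and Gstt1, of the theta class, was also higher in lung, by 1.19.

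Sulfotransferases stood on both sides. Of the listed glucuronosyltransferases, Ugt1a1, Ugt1a2, Ugt1a7c and Ugt1a9 were not measured. Sult1a1, the phenol sulfotransferase, was higher in lung by 3.34 ± 0.25. Sult2b1, a sterol sulfotransferase of keratinising epithelia, was at 2.59, 4.07, 3.69, 4.07 and 4.04 in forestomach and ran from -0.50 to 0.26 in lung, while Ugt2b34, a glucuronosyltransferase, was at 6.96, 3.64, 5.71, 5.05 and 3.46 in forestomach. Ugt2b34 was not well above background in any lung and its Cy5 signal was at least 40.4-fold higher in forestomach, a bound that is open to dye bias because no dyes were swapped. Sult1b1 was at 6.86, 0.31, 5.10, 4.37 and 0.22 and Sult1c2 at 5.94, -1.28, 5.18, 5.10 and -0.97 in forestomach, so both were high in mice 1, 3 and 4 and near the lung level in mice 2 and 5. Their paired differences of -3.34 and -3.87 were just past the threshold (adjusted p = 0.0454 and 0.0445). Against mice 2 and 5 they were -0.23 and 0.045 and not called, nor were they without mouse 1 (adjusted p = 0.072 and 0.0834), mouse 3 (0.152 and 0.15) or mouse 4 (0.137 and 0.146).

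**Figure D3:**
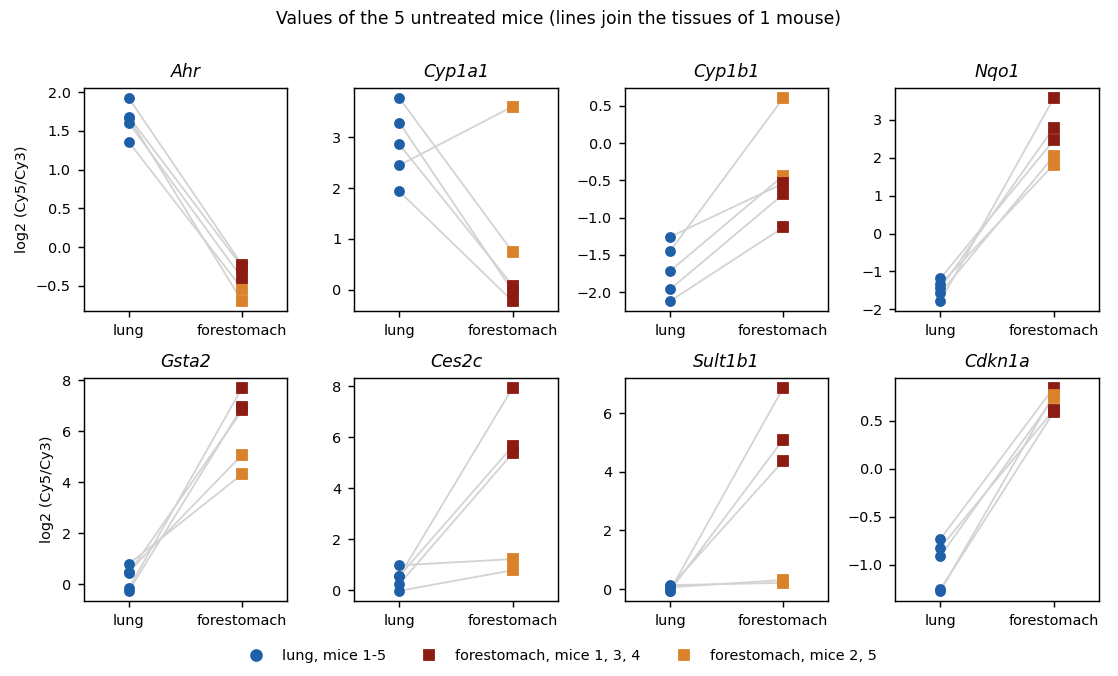
Log2 (Cy5/Cy3) of 8 genes in the lung (circles) and forestomach (squares) of each of the 5 D0 mice, joined by mouse, with forestomachs of mice 1, 3 and 4 in dark red. Ahr, Nqo1, Gsta2, Cyp1b1 and Cdkn1a separate the tissues in every mouse, whereas Ces2c and Sult1b1 differ by a wide margin only in mice 1, 3 and 4, and Cyp1a1 is lower in lung in mouse 5.

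Of the 27 genes of the Nrf2 and antioxidant list, 7 were higher in lung (25.9%) and 11 in forestomach (40.7%), with a median of -0.39 that was 0.21 with median centring (9 and 4 called) and -0.11 against mice 2 and 5 alone (9 and 12 called). G6pdx, the first enzyme of the pentose phosphate pathway, was at 0.74, 1.78, 1.06, 1.18 and 1.48 in forestomach and -0.89, -1.09, -1.19, -0.86 and -0.99 in lung (difference -2.25 ± 0.17, adjusted p = 8.3e-05), and Me1, malic enzyme, differed by -1.81, with 2 further probes at -1.61 and -2.44. Gpx2, the glutathione peroxidase of digestive epithelia, and Hmox1, heme oxygenase, were higher in forestomach, with differences of -1.88 and -1.82. On the lung side stood Prdx6, a peroxiredoxin that also acts on surfactant lipids (2.74 ± 0.14, 4 of 4 probes called), Sod3, the extracellular superoxide dismutase (2.15), Gpx4, the lipid peroxide reductase (1.93), and Gclc, the catalytic subunit of the first step of glutathione synthesis (1.83).

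Efflux pumps were also divided. Of 8 genes 3 were higher in lung and 3 in forestomach, and with median centring 3 and 0. Abcb1a, P-glycoprotein, was at 2.77, 1.77, 2.46, 2.15 and 2.37 in lung and 0.47, 0.37, 0.31, -0.0045 and 0.79 in forestomach (difference 1.91 ± 0.15). Abcc5 and Abcg2 were higher in lung by 0.90 and 0.79. Further Abcc5 probes were at 0.82 and 0.90, both called, and at 0.52, under the fold. The organic anion pumps Abcc1, Abcc4 and Abcc3 were higher in forestomach, with differences of -0.87, -1.03 and -1.10, and none of the 3 was called with median centring. Abcc3 was highest in mice 1, 3 and 4, was not called against mice 2 and 5 (-0.57) and lost its call without mouse 3 (-0.98, adjusted p = 0.0822) or mouse 4 (-1.17, adjusted p = 0.0523).

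Over the 145 measured genes of the 7 xenobiotic lists together, 39 were higher in lung (26.9%) and 50 in forestomach (34.5%). Against the forestomachs of mice 2 and 5 alone, 35 of the 39 and 42 of the 50 were still called the same way. Among the 12 that were not were Abcc3, Abcg2, Ces2c, Cyp1a1, Cyp2c55, Cyp2c65, Ephx1, Gsto2, Sult1b1, Sult1c2 and Tpmt. With median centring 49 were higher in lung and 33 in forestomach. The part that glandular stomach tissue played in the differences of the other genes was not tested.

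The p53 lists were read next, since they respond to adducts in dosed tissue. Of 15 measured members and regulators of the p53 family, 1 was called, and of 30 target genes 4 were higher in lung and 6 in forestomach. Together this is 5 of 45 (11.1%) and 6 of 45 (13.3%), near the background of 14.8% and 12.5%, so these shares are not a result about the lists. With median centring 21 were higher in lung and 4 in forestomach, and the list median of 0.54 was that of the genes above background on all arrays.

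Trp53 was at -1.26, -1.65, -1.06, -1.25 and -1.18 in lung and -0.91, -1.51, -0.72, -0.47 and -0.79 in forestomach. The difference of -0.40 (95% interval -0.64 to -0.16) was under the fold required, and it was 0.098 with median centring. Mdm2, the ubiquitin ligase that restrains p53 and is its target, was higher in lung in all 5 mice, where it ran from 0.04 to 0.26, and from -0.71 to -0.36 in forestomach (difference 0.74 ± 0.095, adjusted p = 0.00106). For Trp63, the family member that maintains squamous epithelium, the 2 probes disagreed. The brighter one differed by 0.14 without a call, while the other was not well above background in any lung, averaged 5.04 ± 1.30 (SD, n = 5) in forestomach and differed by -5.32 (adjusted p = 8.9e-05).

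Single targets lay on both sides. Cdkn1a, the cell cycle inhibitor p21, was at -0.73, -1.27, -0.82, -1.25 and -0.91 in lung and 0.84, 0.77, 0.61, 0.59 and 0.74 in forestomach, 3.27-fold lower in lung (difference -1.71 ± 0.10, adjusted p = 3.2e-05). A second probe for it, above background on 1 array, differed by -0.056. Fas, a death receptor, was higher in lung by 2.06 ± 0.12 and Bbc3, the pro-apoptotic protein Puma, by 1.77 ± 0.085. Bbc3 was at 0.20, 0.29, 0.22, 0.16 and 0.25 in lung and -1.42, -1.65, -1.45, -1.55 and -1.69 in forestomach, with little spread in either. Trp53inp1, which promotes p53 activity under stress, was higher in lung by 1.26, but its second, dimmer probe differed by 0.079. Perp, Sfn and Plk3 were higher in forestomach, with differences of -5.92, -2.92 and -2.83. Perp builds desmosomes and Sfn marks stratified epithelia, and both also stand in the squamous marker list. Bax (0.35), Ccng1 (0.24) and the stress cytokine Gdf15 (0.31), which are induced by p53, were not called, with 95% intervals of 0.082 to 0.62, -0.10 to 0.57 and -0.017 to 0.63. Gdf15 was called higher in lung against mice 2 and 5 (0.83) and with median centring (0.83), and it was at -0.041 against mice 1, 3 and 4. Against mice 2 and 5, 10 genes of the p53 lists were called higher in lung and 8 in forestomach, where 15.8% and 14% of all genes were (29.8% together).

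**Figure D4:**
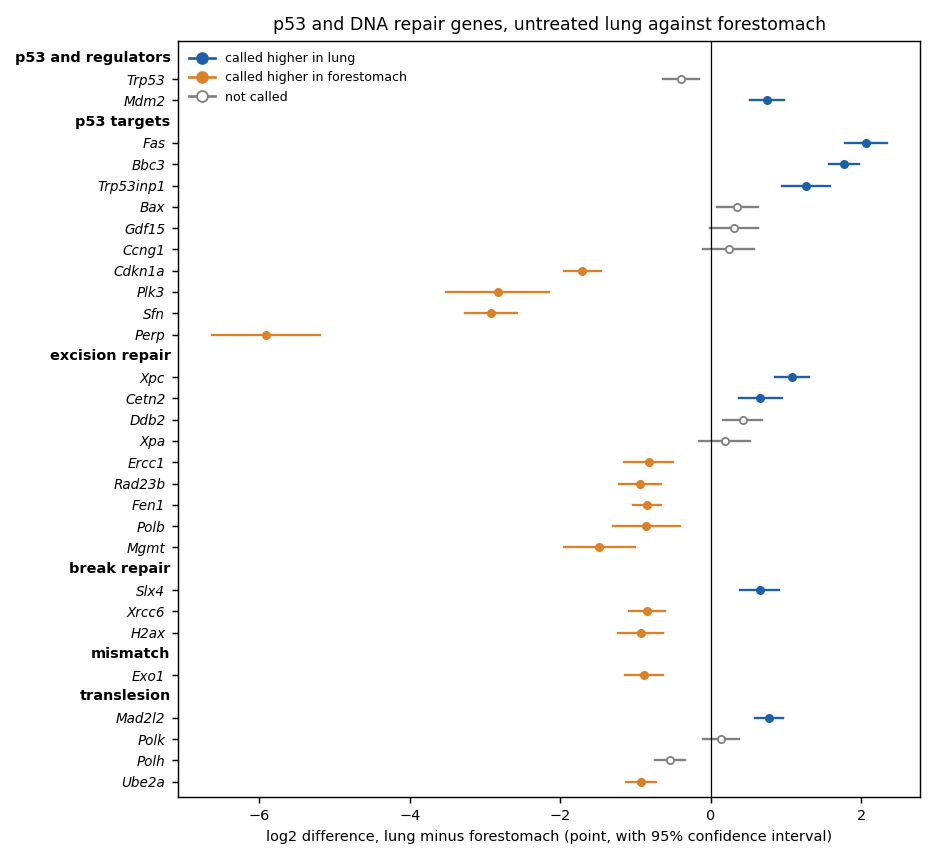
Log2 difference, lung minus forestomach, of 29 genes of the p53 and DNA repair lists with 95% confidence intervals from the paired fit of 5 mice, coloured by call. Most repair genes lie within 1 of 0, while Perp, Sfn and Plk3 of the p53 targets lie far on the forestomach side.

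DNA repair genes differed little in size. Of 118 measured genes, 4 were called higher in lung (3.39%, against 14.8%) and 19 higher in forestomach (16.1%, against 12.5%), with a median of -0.058 and all differences between -1.48 and 1.08. The side of these calls depends on the scaling, as it does for all genes. With median centring 34 were higher in lung and 1 in forestomach, where 27.3% and 4.9% of all genes were. The count toward lung is near that share, so it is not a result about the list. The list median was then 0.37, which is 0.17 below that of the genes above background on all arrays. The 1 that remained on the forestomach side was Mgmt. Directions of single repair genes below are those with loess.

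In nucleotide excision repair, 2 of 29 genes were higher in lung and 3 in forestomach, and with median centring 13 and 0. Xpc, the sensor that finds bulky adducts and is itself a p53 target, was at 1.10, 0.93, 0.57, 0.89 and 0.92 in lung and -0.29, -0.12, -0.25, -0.16 and -0.19 in forestomach. It was higher in lung by 1.08 ± 0.10 (adjusted p = 1.8e-04), 1.03 against mice 2 and 5 and 1.11 against the others, and it was called with median centring too. Cetn2, a partner of Xpc, was higher by 0.66 but not called without mouse 4 (0.55, under the fold) or against mice 2 and 5 (0.36). Rad23b, which stabilises Xpc, Ercc1, a subunit of the incising nuclease, and Gtf2h3, of the factor TFIIH, were higher in forestomach, with differences of -0.94, -0.83 and -0.70, the last not past the fold without mouse 2 (-0.54). A second Rad23b probe differed by -0.27 without a call. Ddb2 (0.42) and Xpa (0.19), which also act in damage recognition, were not called, and a second Xpa probe differed by -0.038.

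In base excision and direct repair the side of the calls depended on the scaling. With loess 6 of 26 genes were higher in forestomach (23.1%) and none in lung (median -0.14), and with median centring 1 and 4 (median 0.37). Relative to the median of the genes above background on all arrays, the list median was -0.16 with loess and -0.17 with median centring. Mgmt, which reverses alkylated guanine, was at -2.40, -2.06, -2.04, -2.48 and -2.87 in lung and 0.063, -0.75, -0.60, -1.57 and -1.57 in forestomach (difference -1.48 ± 0.20, adjusted p = 0.00148). It was lower in lung under every alternative tried. Polb, the repair polymerase, and Fen1, the flap nuclease, were higher in forestomach, with differences of -0.86 and -0.85. Polb was not called without mouse 5 (-0.77, adjusted p = 0.0554).

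In double-strand break and crosslink repair the side of the calls also depended on the scaling. With loess 8 of 41 genes were higher in forestomach (19.5%) and 1 in lung (median -0.086), and with median centring none and 8 (median 0.30). Relative to the median of the genes above background on all arrays, the list median was -0.10 with loess and -0.24 with median centring. With loess H2ax, the histone marked at breaks, and Xrcc6, the Ku70 end binder, were higher in forestomach (-0.93 and -0.85). Slx4, a nuclease scaffold, was higher in lung by 0.65 and fell under the fold without mouse 1 (0.57). Brca1 was not well above background on any array. In mismatch repair 1 of 9 genes, the nuclease Exo1, was called (-0.89), while with median centring 4 were called, all higher in lung. In translesion synthesis, which copies past adducts, 1 of 13 genes was higher in each tissue, and with median centring 5 in lung and none in forestomach. With loess Mad2l2, a subunit of polymerase zeta, was higher in lung (0.77) and Ube2a, which ubiquitinates PCNA, in forestomach (-0.93), although a second Ube2a probe differed by 0.21 without a call. Polk (0.13, second probe -0.086), the polymerase known for bypassing bulky hydrocarbon adducts, and Polh (-0.54) were not called.

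Fen1 and Exo1 are also expressed in step with the cell cycle, so a list of 24 proliferation genes is given beside them. Of these 20 were higher in forestomach (83.3%) and none in lung, with a median of -1.06. With median centring 8 were higher in forestomach and none in lung, with a median of -0.38. Birc5, survivin, was at -3.79, -4.15, -4.13, -4.59 and -4.51 in lung and -1.96, -1.66, -2.13, -1.87 and -2.47 in forestomach (difference -2.21 ± 0.14, adjusted p = 3.9e-05), and 2 further probes gave -1.28 and -1.30. Cdc20, which triggers anaphase, and Rrm2, which makes deoxynucleotides, differed by -1.81 and -1.70. The part of proliferating cells in the repair differences was not tested.

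Finally, the tissue difference was measured in mice that the D0 fit did not use. The same paired fit was run in 5 mice given 6.25 (D1), 4 given 12.5 (D2) and 4 given 25 (D3) mg/kg-bw/day of dibenz(a,h)anthracene. At D3 the repeat forestomach arrays of a mouse were averaged, and a mouse without a forestomach array was left out. Of the 8933 probes called at D0, 99.7%, 99.6% and 99.3% kept their sign in the 3 dose groups in this order. In the same order, 89.9%, 80.1% and 82.4% were also called in the D0 direction, where 19.1%, 15.1% and 16.7% of all probes were called. The share of all probes called higher in lung and in forestomach was 10.3% and 8.82% at D1, 8.39% and 6.75% at D2, and 8.7% and 8.05% at D3. No probe called at D0 was called in the opposite direction at D1, 2 were at D2 and 4 at D3. Ahr differed by 1.95, 1.78 and 1.66 at the 3 doses, Nqo1 by -4.00, -4.08 and -3.91, Gsta2 by -6.04, -6.15 and -5.88, and Xpc by 1.28, 0.93 and 0.98, all called. Cyp1a1 differed by 0.45, -0.27 and 0.66, none of them called. These mice were dosed, so they are not further untreated animals.

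**Figure D5:**
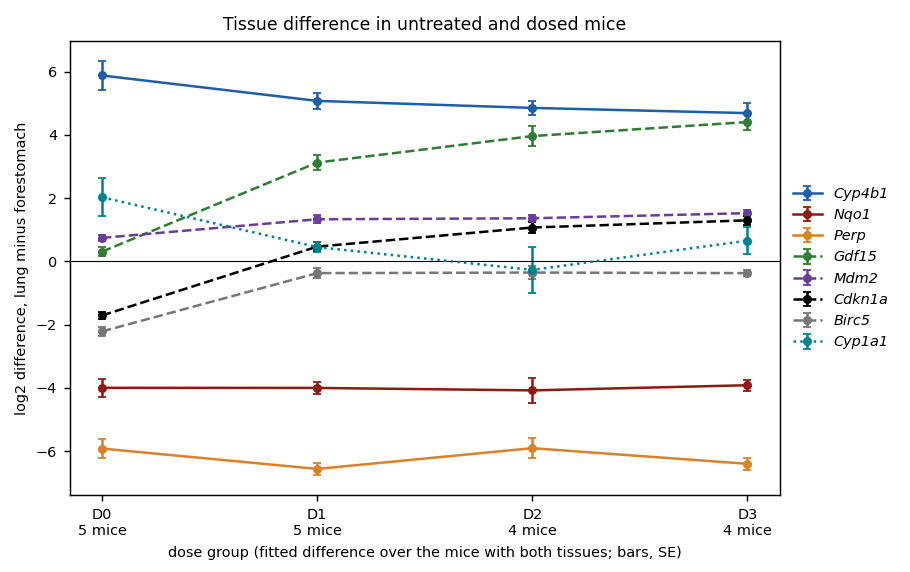
Fitted log2 difference, lung minus forestomach, of 8 genes in D0 and in the 3 dosed groups, with SE, over 5, 5, 4 and 4 mice with both tissues. Cyp4b1, Nqo1 and Perp (solid) stay far from 0 on their D0 side at every dose, while Gdf15, Mdm2, Cdkn1a and Birc5 (dashed) lie higher at every dose than at D0.

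Some p53 genes were exceptions. The D0 difference of Cdkn1a was -1.71, and in dosed mice it was 0.47, 1.07 and 1.30, so that lung was called the higher tissue at D2 and D3. The change against D0 was tested in a fit of all groups, which called 44 probes (0.079%) at D1, 68 (0.122%) at D2 and 139 (0.25%) at D3. For Cdkn1a it was 2.18 ± 0.20 (adjusted p = 1.3e-07) at D1 and 3.01 ± 0.21 (adjusted p = 4.7e-11) at D3. Gdf15 changed by 4.07 ± 0.40 (adjusted p = 2.0e-07) at D3, Bax by 1.41, Ccng1 by 1.61 and Mdm2 by 0.72. The tissue difference of the proliferation genes was also smaller in dosed mice. At D3 13 of 24 were called in this contrast, all toward lung, with a median change of 0.92, and Birc5 changed by 1.86 ± 0.25 (adjusted p = 6.7e-05). All changes against D0 were fitted to loess values alone and were not repeated with median centring. That fit also held the lung of a D3 mouse without a forestomach array.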

How the data were processed

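Per the labels and the study's methods, tissue RNA was labelled with Cy5 and universal mouse reference RNA with Cy3, and both were hybridised to Agilent 8x60K mouse arrays with no dye swap. The deposited scanner files hold the authors' Feature Extraction intensity per spot and a log10 ratio of Cy5 over Cy3. A deposited table holds log2 ratios that the authors made by loess without background correction. Here the median intensities were normalised by loess within each array, with control spots at weight 0 and repeat spots averaged. In place of the authors' MAANOVA, log2 (Cy5/Cy3) of 55681 probes was modelled on mouse (block) and tissue in limma, version 3.58.1, under R 4.3.3. P-values were adjusted by Benjamini-Hochberg over all probes. Missing values, 1 in each of 74 probes, were not imputed.

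RefSeq's table for GRCm38.p6 gave symbols to 26413 probes of 20018 genes, and 29268 probes stayed unnamed. The probe with the highest mean log2 Cy5 stood for a gene. Bounds came from log2 Cy5 after Aquantile scaling, with the bright tissue's mean set against the higher of the lowest detected signal and the dim probe's own. Mice are separate animals, and the pairing rests on their numbers in the titles. Deviations of the tissues of mice 1 to 5 from their tissue means correlated at 0.082, 0.33, 0.34, 0.20 and 0.19. The lung of mouse 1 matched the forestomach of mouse 5, on the same slide, better than its own, and the other lungs matched their own best. Both arrays of a mouse shared a slide, so these values do not separate a mouse from its slide. The fit of all dose groups took the mouse as a random block.

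Genes were named by 3 rules. These were the 10 largest differences each way, up to 4 called genes of largest difference each way in each list, and a short list of AhR, p53 and repair genes whatever their values. Cyp2c55, Gsto2 and Tpmt were named because a small count needed them. Members, lists and tests were chosen with earlier results of these data known. Some genes that the rules pick are not reported here. Tests were checked on simulated data. The number of arrays limits the precision.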

Additional observations from a re-analysis of the deposited data

Results flagged for a closer look

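For 116 genes and 33 lists examined, the 5 values of each tissue were searched for 1 value far from the rest, in 232 groups of gene values and 66 of list means. Chance picks out about 1 in 20 groups, and 12 gene groups and 4 list groups were picked out, so single cases carry little weight. Each value is a log2 ratio, with the range of the other 4 mice beside it.

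Forestomach of mouse 1 was low in Ada (5.11, others 6.97 to 7.33), Sult2b1 (2.59, others 3.69 to 4.07) and Por (0.49, others 0.83 to 0.95), and high in Ccng1 (-0.014, others -1.29 to -1.09). Its mean over the p53 targets was -0.28, against -0.043 to 0.026. This is the forestomach with the highest glandular score. Forestomach of mouse 2, the one with the high fat score (3.75, others 0.79 to 1.15), was low in Krt1 (5.95, others 7.03 to 7.36) and high in Fmo1 (1.19, others -0.093 to 0.20) and Marco (1.54, others -0.063 to 0.14). Forestomach of mouse 5 was high in Cyp1a1 (3.61, others -0.23 to 0.74), and with it in the mean of the AhR pathway list (0.40, others -0.076 to 0.034). Gzma there was 0.025, against -0.21 to -0.17.

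The remaining cases were small. Nkx2-1 in forestomach of mouse 3 was 0.11 against -0.0027 to 0.023, with no forestomach array above background. In lung, Mad2l2 of mouse 1 was -0.49 against -0.95 to -0.83, Perp of mouse 5 was -0.65 against -0.37 to -0.28, and the squamous list of mouse 4 averaged 0.12 against 0.053 to 0.071.

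The tissue difference at D3 differed from that at D0 for 10 of the 116 genes, by the interaction term of the fit of all dose groups, with loess values. All 10 moved toward lung. Those of the p53 pathway were Gdf15 (4.07), Cdkn1a (3.01), Ccng1 (1.61), Bax (1.41), Trp53inp1 (1.23) and Mdm2 (0.72). Birc5 (1.86), Rrm2 (1.62), Cdc20 (1.13) and Fen1 (0.78) are expressed in step with the cell cycle.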

How the results depend on the processing

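Median centring in place of loess moved most. It called 8475 probes higher in lung and 1497 in forestomach (median over all probes -0.037), 33 xenobiotic genes in forestomach, 21 p53 genes in lung (median 0.54) and 34 repair genes in lung and 1 in forestomach (median 0.37). Feature Extraction's own log ratio called 12 p53 and 12 repair genes higher in lung, with medians of 0.22 and 0.043, and a median of 0.0 over all probes. A fold of at least 2 left 2674 and 2070 probes, and 1 and 2 repair genes, higher in lung and forestomach. The adjusted p alone gave 7443 and 6924 probes, 10 and 13 p53 genes and 13 and 33 repair genes. With the probes well above background alone, the median was 0.041. Leaving out mice in turn gave 4408 to 4837 probes higher in lung and 3764 to 4382 in forestomach (median -0.017 to -0.012). The p53 lists had 5 to 6 and 5 to 8 genes called (median 0.085 to 0.15) and the repair lists 3 to 5 and 17 to 23 (median -0.092 to -0.026). Without the replicate block 4703 and 3945 probes were called, and of the list genes 37 and 47 xenobiotic, 5 and 5 p53 and 4 and 18 repair genes, so the pairing moved no count by over 1.5 times. The fits without forestomachs of mice 1, 3 and 4, or of 2 and 5, were unpaired and were chosen after seeing the data. Without mice 1, 3 and 4 the median over all probes was -0.0080 and 10 p53 genes were higher in lung (median 0.16), while without 2 and 5, 7 repair genes were. Differences that changed sign were not called on either side, except that Sult1c2 was called in the paired fit. They were Trp53 (0.098, median centring), Sult1c2 (0.045) and Xpa (-0.22) without mice 1, 3 and 4, and Gdf15 (-0.041) and Trp63 (-0.062) without 2 and 5. Causes were not tested. Dim probes limit Cyp1a2, Ahrr and Brca1, which were at or near background in both tissues.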

Other observations

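The lungs also held more transcript of resident immune and airway cells. Of 11 alveolar macrophage markers 10 were higher in lung, among them Ear1, a ribonuclease of macrophages and eosinophils (5.04 ± 0.19), and Marco, a scavenger receptor (4.09 ± 0.44). The remaining marker, Pparg, was called higher in forestomach (-1.14). Of 11 B cell markers 7 and of 13 T and NK cell markers 8 were higher in lung, with Cd79b, of the B cell receptor, at 3.88 and the granzyme Gzma at 4.68. No marker of these lymphocyte lists was called higher in forestomach. Many of these markers were near background there, so such differences are not exact sizes. Gzma was well above background on 1 forestomach array and Marco on 2. The lowest forestomach had 1 of 11 B cell markers and 2 of 13 T and NK cell markers well above background. Ciliated cell markers varied more between lungs than other lung lists, with means from 1.97 to 3.56, and Dynlrb2, of the dynein motor of cilia, differed by 4.57.

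In forestomach, 11 of 14 foregut regulators and 9 of 13 markers of enteric neurons and glia were higher. In the enteric list 2 markers, Stmn2 and Snap25, were called higher in lung. Grhl3, which drives epidermal barrier formation, was at 3.82, 5.83, 4.67, 4.96 and 6.58 in forestomach and from 0.12 to 0.72 in lung. Vip, a neuropeptide of enteric neurons, was also higher there (-2.81). Hoxa5, a homeobox gene known for its role in lung development, was the 1 foregut regulator called higher in lung (1.63). Myh6, the atrial myosin, was at 0.40, 4.13, 3.92, 3.00 and 2.84 in the lungs of mice 1 to 5 and from -0.15 to 0.086 in forestomach. A second Myh6 probe, above background on 1 array, differed by -0.12.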
